A study of Homo sapiens with 6 samples.

Results

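Metallothioneins are small, cysteine-rich proteins that hold zinc, copper and cadmium, and the liver is one of the tissues in which they are most abundant. When free zinc rises, the transcription factor MTF1 binds metal response elements in the promoters of the metallothionein genes and of SLC30A1, which encodes the zinc transporter of the plasma membrane that carries zinc out of the cell. Glucocorticoids, oxidative stress and inflammation also induce metallothioneins.

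Here 8 of the 20030 genes of the count table were examined. They were taken by symbol, namely the metallothioneins MT1E, MT1F, MT1G, MT1M, MT1X and MT2A, their activator MTF1, and SLC30A1. The cells were HepG2, an established human hepatoma line, infected with lentivirus that carried a control shRNA in the 3 sh-ctrl libraries and an shRNA against the KIF11 mRNA in the 3 sh-KIF11 libraries. A short hairpin RNA is processed by the cell into a small RNA that directs breakdown of the matching mRNA, and KIF11 is a kinesin motor of the mitotic spindle. Both groups therefore shared the cell line and the lentiviral shRNA, and differed in its target. The labels give no time after infection and do not say whether the libraries came from separate cultures, so the p-values measure the spread between these libraries, which may be technical.

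The libraries held between 18167773 and 19583282 counts. KIF11 itself had counts of 1976, 2088 and 2039 in the control libraries against 1448, 1478 and 1240 after KIF11 knockdown, which is 115.7 ± 5.01 against 68.8 ± 5.16 CPM (counts scaled with TMM factors to a common library size, mean ± SD, n = 3, as throughout). Its log2 fold change was -0.75 (SE 0.0573, adjusted p = 4.22e-15, edgeR quasi-likelihood test with Benjamini-Hochberg adjustment over all tested genes). Of 10 hepatocyte markers, all passed the filter on low counts. Among markers of other cell types, PTPRC of leukocytes had at most 1 count in any library and COL1A1 of fibroblasts at most 6, whereas LYZ, a lysozyme gene of myeloid cells, was measured at 2612 ± 260 CPM in sh-ctrl.

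The metallothionein mRNAs fell in sh-KIF11 cells, by unequal amounts, while, with TMM scaling, SLC30A1 rose slightly and no change of MTF1 was detected. Of the 8 genes, 5 were called lower (MT1E, MT1F, MT1G, MT1X and MT2A), 1 was called higher (SLC30A1), 1 was not called (MTF1), and 1 (MT1M) had too few counts to be tested. Changes were common in these libraries, since 69.1% of the 12369 tested genes passed an adjusted p of 0.05. Of all tested genes, 34.4% were called higher and 34.7% lower. In CPM, 6 of the 7 tested genes did not overlap between the groups, against 71.2% of all tested genes. The median log2 fold change of the 7 was -0.81, beside 0.0043 over all tested genes. In bulk RNA, fewer cells that express a gene and less RNA per cell cannot be told apart.

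The promoters are shown first, because metal response elements are the feature that metallothionein genes and SLC30A1 are known to share. The start-site windows of RefSeq (GRCh38.p14) held 4 of the 8 genes, MT2A, MT1X, SLC30A1 and MTF1. Each line gives the 250 bases before the start site, 5′ to 3′ on the strand of the gene, and the capitals mark matches to the core of the metal response element (TGCACNC or TGCGCNC, on either strand). MT2A lies on chr16:56608334-56608583 (+), MT1X on chr16:56682220-56682469 (+) and SLC30A1 on chr1:211579162-211579411 (-). MT1H, on chr16:56669564-56669813 (+), is a metallothionein that had 0 counts in all 6 libraries and is printed for contrast.
MT2A: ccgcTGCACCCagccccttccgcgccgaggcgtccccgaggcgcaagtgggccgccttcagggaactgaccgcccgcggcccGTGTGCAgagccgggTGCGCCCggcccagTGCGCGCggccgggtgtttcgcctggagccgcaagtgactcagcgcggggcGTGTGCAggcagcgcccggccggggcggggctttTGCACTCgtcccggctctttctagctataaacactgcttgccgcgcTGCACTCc
MT1X: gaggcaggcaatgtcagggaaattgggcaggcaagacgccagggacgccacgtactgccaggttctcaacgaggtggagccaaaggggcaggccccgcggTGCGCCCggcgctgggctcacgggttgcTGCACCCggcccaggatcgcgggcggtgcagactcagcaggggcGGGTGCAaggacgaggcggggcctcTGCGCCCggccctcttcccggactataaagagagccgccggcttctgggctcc
MT1H: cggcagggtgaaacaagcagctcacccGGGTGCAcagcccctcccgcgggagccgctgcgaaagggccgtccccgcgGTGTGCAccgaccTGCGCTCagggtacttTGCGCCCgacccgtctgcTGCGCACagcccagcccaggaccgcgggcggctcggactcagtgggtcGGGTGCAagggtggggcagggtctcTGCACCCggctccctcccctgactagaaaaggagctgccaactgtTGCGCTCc
SLC30A1: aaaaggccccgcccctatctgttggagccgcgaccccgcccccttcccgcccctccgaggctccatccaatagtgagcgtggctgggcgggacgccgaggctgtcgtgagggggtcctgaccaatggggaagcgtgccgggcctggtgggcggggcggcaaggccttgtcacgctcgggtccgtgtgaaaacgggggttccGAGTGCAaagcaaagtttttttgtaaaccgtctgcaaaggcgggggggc

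The MT2A window held 7 core matches, and 0.0313% of the 35116 windows of this length held as many. MT1X held 4 (0.37% of windows held as many), SLC30A1 held 1 and MTF1 held 0, where 24.8% of all windows held at least 1. The silent MT1H held 8, the densest of these windows, and 0.0171% of all windows held as many. The window with the most matches thus belonged to a gene without counts. Part of the layout was shared, with a core on the gene's own strand that began at position -54 in MT2A and at -53 in MT1X and MT1H, counted back from the start site, and a core on the other strand at -88 in MT2A and at -78 in both others. MT2A and MT1X each also held TATAAA, at -29 and -30 (10.7% of windows held it on either strand), and MT1H did not. MT1B, a further metallothionein, held it too, at -30, with 3 metal response element cores (1.58% of windows held as many). Its counts were 4, 1 and 0 in the control libraries and 0 in every knockdown library, so TATAAA also occurred in a nearly silent gene. The core of the antioxidant response element (TGAC, any 3 bases, GC) was found once each in MT2A, MT1X, MT1B and SLC30A1, and in 10.9% of windows. None of these motifs overlapped another in the windows of these genes. The annotated starts differ between sources. The RefSeq start of SLC30A1 lies 419 bases upstream of the gene's start in GENCODE release 29, whereas those of MT2A, MT1X and MTF1 lie inside the GENCODE gene, at offsets of -385, -46 and -28 bases, so that the MT2A window falls within the gene coordinates given for MT2A.

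**Figure D1:**
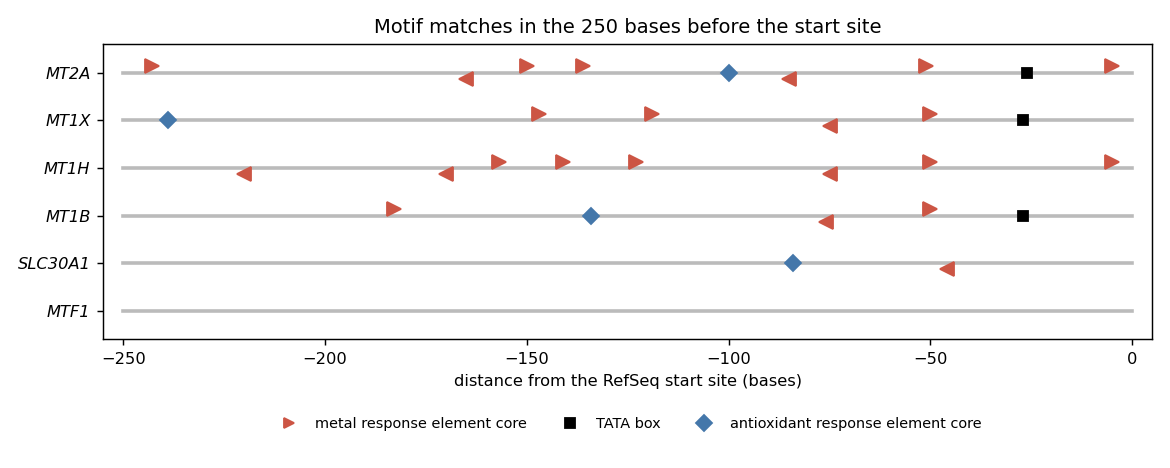
Motif matches in the 250 bases before the RefSeq start site, with position in bases on the horizontal axis and 1 line per gene; triangles are metal response element cores and point in the direction of the strand, squares are TATAAA and diamonds are antioxidant response element cores. MT2A holds 7 metal response element cores, MT1X 4, MT1H 8, MT1B 3, SLC30A1 1 and MTF1 0.

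MT2A was the metallothionein gene with the highest mRNA level in these cells. It had counts of 2709, 2890 and 2352 in the control libraries against 1676, 1669 and 1859 after KIF11 knockdown. In CPM that was 150.4 ± 10.5 against 86.1 ± 7.18. The lowest sh-ctrl library stood at 139.3 and the highest sh-KIF11 library at 94.2, so the groups were well apart. The log2 fold change was -0.81 (SE 0.0579, adjusted p = 6.18e-16, edgeR), a fall to 0.572 of the control level (95% interval 0.528 to 0.620), and 5.73% of tested genes had a more negative value. The interval leaves out the choice of scaling. With library totals alone the log2 fold change was -0.57, and in a fit to the deposited FPKM it was -0.54. Both were smaller falls than the interval covers. The gene lies at chr16:56608199-56609497 (GRCh38, GENCODE release 29, + strand).

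MT1E, an isoform of the MT1 group, fell the least. It had counts of 1180, 1038 and 1109 in the control libraries against 772, 856 and 840 after KIF11 knockdown, or 63.1 ± 4.86 against 40.8 ± 2.11 CPM. The groups did not overlap, and the log2 fold change was -0.63 (SE 0.0683, adjusted p = 9.45e-11, edgeR). The gene lies 17276 bases downstream of MT2A, at chr16:56625475-56627112 (+).

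MT1G fell the most among the 7 tested genes. It had counts of 812, 830 and 778 in the control libraries against 183, 191 and 130 after KIF11 knockdown, or 45.9 ± 0.302 against 8.31 ± 1.49 CPM. The sh-ctrl libraries hardly differed from each other, and the sh-KIF11 libraries were 5.51-fold lower. The log2 fold change was -2.46 (SE 0.0933, adjusted p = 3.49e-25, edgeR), and only 0.202% of tested genes had a more negative value. It is the only one of the measured cluster genes on the minus strand, at chr16:56666731-56668065.

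MT1F (chr16:56657694-56660698, +) was second in the size of its fall. Its counts were 474, 489 and 448 in the control libraries against 172, 164 and 137 after knockdown, and its level went from 26.7 ± 0.309 to 7.81 ± 0.818 CPM. The log2 fold change was -1.77 (SE 0.0967, adjusted p = 8.30e-20, edgeR), and the spread within either group was small beside the 3.42-fold difference between them.

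MT1X (chr16:56682424-56684196, +) had counts of 335, 342 and 291 in the control libraries against 173, 141 and 132 after KIF11 knockdown, or 18.3 ± 0.941 against 7.37 ± 1.08 CPM. The groups did not overlap, and the log2 fold change was -1.31 (SE 0.109, adjusted p = 5.81e-14, edgeR). The annotation places a processed transcript, AC026461.1, on the same strand over this gene, and 50.8% of the 100-base windows of the longest MT1X transcript also occurred in another gene's transcript, so its counts depend on how such reads were treated. No 100-base window of MT1E, MT1F, MT1G, MT1M or MT2A was found in the transcript of another gene, although identical stretches of up to 92 bases (MT1G and MT1H) and 85 bases (MT1E and MT1G) occurred.

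MT1M (chr16:56632233-56633986, +) was close to the detection limit. It had counts of 6, 5 and 12 in the control libraries against 2, 1 and 0 after KIF11 knockdown, and did not pass the filter on low counts. The summed counts were 23 against 3, which after scaling is an 8.79-fold difference with a 95% exact interval of 2.66 to 45.7 that covers counting error only. In counts no knockdown library reached the lowest control library, but in the deposited FPKM the groups overlapped, with 0.267 in sh-KIF11 library 2 and 0.249 in sh-ctrl library 2.

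**Figure D2:**
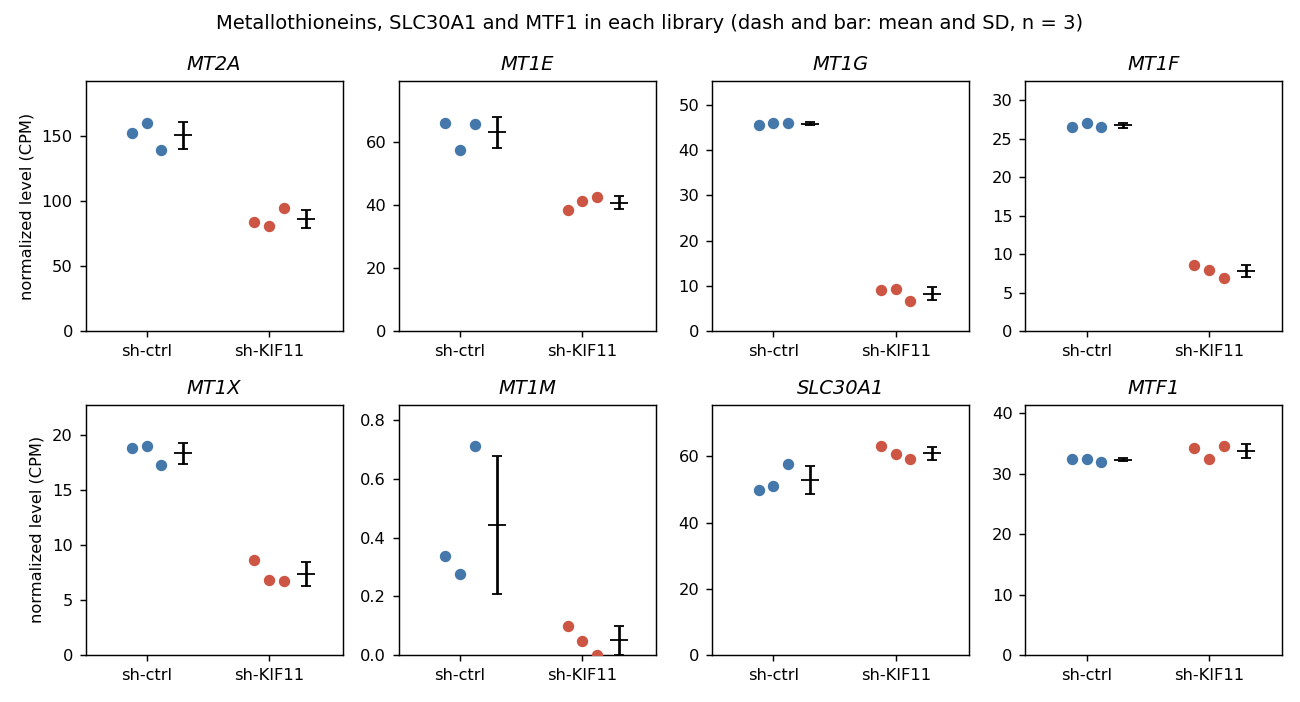
TMM-normalised level in CPM (vertical axes from 0, a scale for each gene) of the 8 genes in the 3 sh-ctrl libraries (blue) and the 3 sh-KIF11 libraries (red); points are libraries, and the dash with bars is the mean ± SD. The 6 metallothioneins are lower in every sh-KIF11 library, SLC30A1 is slightly higher and MTF1 overlaps between the groups.

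SLC30A1, the zinc exporter and a further MTF1 target, went the other way. It had counts of 889, 924 and 976 in the control libraries against 1265, 1260 and 1167 after KIF11 knockdown, or 52.9 ± 4.27 against 61.0 ± 1.94 CPM. The highest sh-ctrl library (57.8) came close to the lowest sh-KIF11 library (59.1) without reaching it. The log2 fold change was 0.21 (SE 0.0649, adjusted p = 0.00506, edgeR), or 1.15-fold with a 95% interval of 1.05 to 1.26, and 65.2% of tested genes had a lower value. The size of this rise rested on the scaling. With library totals alone the log2 fold change was 0.44 (adjusted p = 9.29e-08, edgeR), above the interval's upper bound of 0.34. In the deposited FPKM the means were 23.9 in sh-ctrl and 31.9 in sh-KIF11. The gene lies at chr1:211571568-211578742 (-).

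MTF1, the zinc-sensing activator itself, had counts of 579, 585 and 540 in the control libraries against 687, 670 and 681 after KIF11 knockdown. After scaling these were 32.3 ± 0.257 and 33.7 ± 1.17 CPM, and the groups overlapped. The log2 fold change of 0.06 (SE 0.0733, adjusted p = 0.463, edgeR) had a 95% interval of -0.09 to 0.21, so a rise of up to 1.16-fold or a fall to 0.942 could not be told from no change. This call rested on the scaling. With library totals alone the value was 0.29 (adjusted p = 0.000498, edgeR), where the median of all tested genes moved to 0.23, and in the deposited FPKM the sh-ctrl libraries (2.88 to 2.90) lay below the sh-KIF11 libraries (3.16 to 3.41). Messenger RNA says nothing of MTF1 protein or of its activity. The gene lies at chr1:37809567-37859620 (-), over a processed pseudogene on the other strand.

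The only other metallothionein gene with enough counts to be tested, MT1A, followed the same direction. The table listed 12 metallothionein genes, 6 were tested, and all 6 were lower, beside 34.7% of all tested genes. MT1A had counts of 44, 46 and 39 in the control libraries against 5, 7 and 8 after KIF11 knockdown. Its log2 fold change was -2.86 (SE 0.343, adjusted p = 1.16e-09, edgeR). MT1B had 5 counts over the sh-ctrl libraries and 0 over sh-KIF11, the brain isoform MT3 had 1 count in a single library, and MT1H, MT1HL1 and MT4, a gene of squamous epithelium, had 0 throughout. Summed over the family, the level was 312, 312 and 298 CPM in the control libraries against 149, 146 and 157 after knockdown. This was 307 ± 8.26 against 151 ± 5.86 CPM, a fall of the pool to 0.491 of the control level, and in the deposited FPKM to 0.564.

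Because isoforms fell by different amounts, the make-up of the family changed. These comparisons stay within a library and do not depend on scaling between libraries. Relative to MT2A, the MT1G count was 0.300, 0.287 and 0.331 in the control libraries against 0.109, 0.114 and 0.0699 after knockdown, so MT1G lost 68.0% of its level against MT2A. The MT1F ratio went from 0.178 ± 0.0110 to 0.0915 ± 0.0156, and the MT1X ratio from 0.122 ± 0.00309 to 0.0862 ± 0.0162. Each of these 3 ratios separated the groups completely, with an exact permutation p = 0.1, the smallest that 3 against 3 libraries allow. The MT1E ratio showed no separation, with values of 0.422 ± 0.0574 and 0.475 ± 0.0330 that overlapped (exact permutation p = 0.3). The SLC30A1 count relative to that of MT2A rose from 0.354 ± 0.0527 to 0.712 ± 0.0734, without overlap (exact permutation p = 0.1).

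Levels of different genes can be compared only per length, so the order was taken from the FPKM (fragments scaled to transcript length and library size). In sh-ctrl it was led by MT2A at 698 ± 44.9 FPKM, followed by MT1G at 199 ± 2.64 and MT1X at 105 ± 5.70. MT1F (25.7 ± 3.79), MT1E (25.6 ± 1.31) and SLC30A1 (23.9 ± 2.40) came next, and each overlapped its neighbour. MTF1 was at 2.89 ± 0.0120 and overlapped with MT1M, which ranged from 0.249 to 2.95. In sh-KIF11 MT2A remained first at 482 ± 44.9 FPKM. MT1X (47.8 ± 6.05) and MT1G (43.7 ± 7.29) no longer differed beyond their spread, and SLC30A1 at 31.9 ± 0.867 stood above MT1E (18.4 ± 1.92) and MT1F (7.04 ± 1.87). MTF1 followed at 3.32 ± 0.136, and MT1M was listed at 0 in 2 libraries and at 0.267 in the other.

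MT2A thus made up 65.5 ± 1.54% of the family's FPKM in sh-ctrl and 80.1 ± 2.71% in sh-KIF11, and the share of MT1G went from 18.7 ± 1.02% to 7.34 ± 1.58%. Of the family's counts, MT2A held 48.9 ± 2.24% in sh-ctrl and 57.0 ± 2.50% in sh-KIF11. The share of MT1G in the counts went from 14.9 ± 0.475% to 5.54 ± 1.18%. The deposited tables did not weigh the genes alike. MT1E held 20.6 ± 1.91% of the family's counts in sh-ctrl but 2.41 ± 0.222% of its FPKM, and MT1F 8.70 ± 0.196% of the counts but 2.42 ± 0.411% of the FPKM. The length at which counts and FPKM would match was 2278 bases for MT1E in sh-ctrl, where its longest coding transcript has 729. For MT1F it was 976 bases in sh-ctrl and 1245 in sh-KIF11, where the transcript has 690. The same figure in sh-ctrl was 199 for MT2A, 213 for MT1G and 162 for MT1X. Their longest coding transcripts have 786, 628 and 538 bases. The figure was thus longer than the transcript for MT1E and MT1F, and shorter for MT2A, MT1G and MT1X. The order and the shares of these genes therefore depend on the table, and the cause was not tested. The falls do not, since MT1E, MT1F, MT1G, MT1X and MT2A were lower in both tables.

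**Figure D3:**
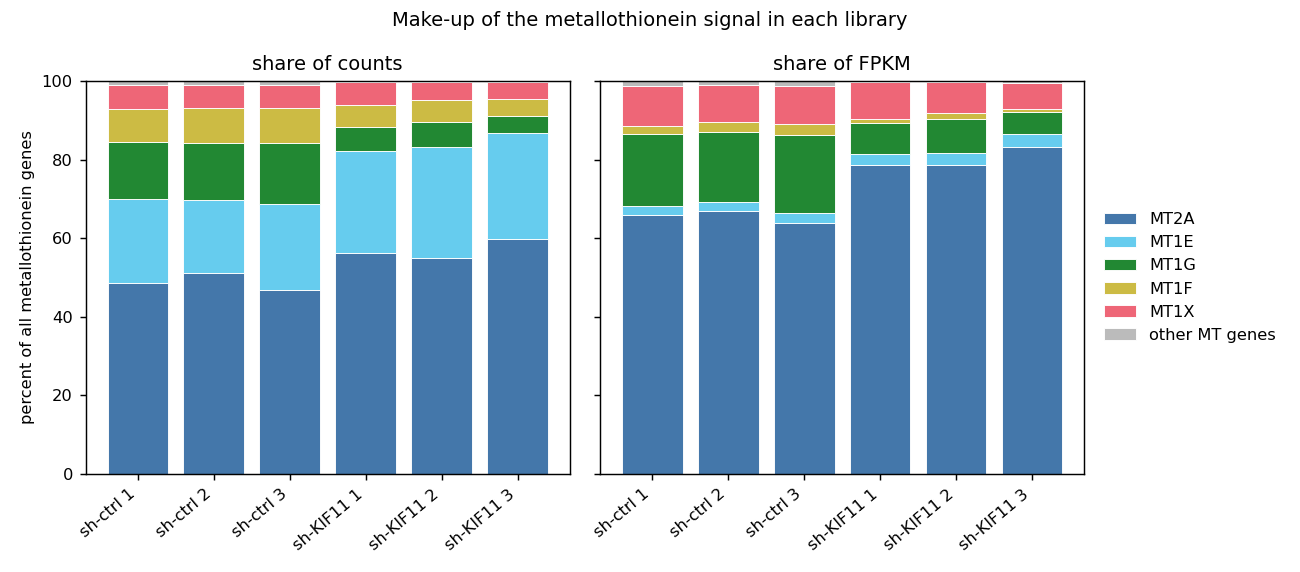
Share of each gene in the summed metallothionein counts (left) and FPKM (right), in percent, with 1 bar per library. The MT2A segment is larger and the MT1G segment smaller in all 3 sh-KIF11 libraries, and MT1E and MT1F take larger shares of the counts than of the FPKM.

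The genes whose profile over the 6 libraries was nearest to the mean profile of the 5 tested metallothioneins named above, among 9384 other genes whose mean level was 10 CPM or more, were WASF3, CCDC69, C2, C8A and MMP15. Their root mean square distance from that profile was between 0.0259 and 0.0502 on the log2 scale. WASF3, a regulator of the actin cytoskeleton, was nearest, with counts of 646, 668 and 601 in the control libraries against 299, 286 and 249 after KIF11 knockdown. C2 and C8A encode complement proteins that the liver secretes, and MMP15 encodes a membrane-type metalloproteinase. These small distances are what the genes were chosen for. Among the metallothioneins themselves, MT1E and MT2A were the nearest pair (0.157), then MT1F and MT1X (0.241), and MTF1 and SLC30A1 were 0.110 apart.

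Of 10 further zinc exporters 6 were tested, and 2 were higher and 3 lower, beside 34.4% and 34.7% of all tested genes (median log2 fold change -0.19), where library totals alone gave 2 higher and 2 lower with a median of 0.04. SLC30A10, a transporter that mainly carries manganese, fell from a mean of 21.4 to 9.60 CPM (log2 fold change -1.16, SE 0.10, adjusted p = 1.67e-13, edgeR), and SLC30A7 of the Golgi fell by 0.39 on the log2 scale. SLC30A9 (0.35) and SLC30A6 (0.27) rose.

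Of 14 zinc importers 12 were tested, and 3 were higher, 6 lower and 3 not called, beside 69.1% called in either direction among all tested genes (median -0.15), against 4 higher and 4 lower with library totals alone. SLC39A14, the transporter that brings zinc, iron and manganese into hepatocytes, fell from 964 ± 17.8 to 431 ± 33.0 CPM (log2 fold change -1.16, SE 0.0511, adjusted p = 5.93e-23, edgeR). SLC39A5 fell by 0.72 on the log2 scale. SLC39A10, a plasma membrane importer, rose from 18.3 ± 0.383 to 30.9 ± 1.68 CPM (0.76, adjusted p = 6.27e-11, edgeR), and SLC39A8 rose by 0.74 from a low level of 0.774 CPM (adjusted p = 0.0451, edgeR).

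Of 6 other genes known as MTF1 targets, 3 were higher, 1 was lower and 2 were not called, beside 69.1% called among all tested genes. The median log2 fold change was 0.28, and library totals alone gave 5 higher and 1 lower. The list mixes directions of control, since MTF1 represses SLC39A10, which is among the 3. SLC40A1, ferroportin, the iron exporter, rose from 133 ± 11.1 to 292 ± 15.9 CPM (1.13, adjusted p = 1.53e-21, edgeR). GCLC, a subunit of the enzyme that starts glutathione synthesis, rose by 0.47. PGF, placental growth factor, fell by 0.75 on the log2 scale from 27.2 ± 1.88 to 16.1 ± 3.61 CPM (adjusted p = 1.21e-08, edgeR). SELENOW and HAMP, which encodes hepcidin, were at 0.10 and 0.03 and were not called. Of the coactivators of MTF1, EP300 was at -0.16 (adjusted p = 0.0108, edgeR) and SP1 at -0.00 (adjusted p = 0.942, edgeR), and the sign of both turned with library totals alone.

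Glucocorticoids and oxidative stress are other inducers of metallothioneins. Of 9 glucocorticoid response genes 8 were tested, with 4 higher and 2 lower beside 69.1% called among all tested genes (median 0.31, and 5 higher and 0 lower with library totals alone). The glucocorticoid receptor gene NR3C1 rose by 0.97 and its target PER1 fell by 0.40 on the log2 scale, while KLF9 (1.29) and TSC22D3 (1.07) rose from levels of 0.903 and 0.720 CPM. Of 9 genes of the metal and oxidative stress response 5 were higher and 4 lower, beside 34.4% and 34.7% of all tested genes (median 0.26, and 5 higher and 3 lower with library totals alone). GCLM (1.49), the cystine importer gene SLC7A11 (0.93) and TXNRD1 (0.70) rose, and NQO1 fell by 0.72 on the log2 scale. The other lower genes were the heat shock genes HSPA1B (-0.55), HSPA1A (-0.41) and DNAJB1 (-0.16).

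Copper is the other metal that metallothioneins hold in the liver. Of 11 genes for copper handling, all tested, 9 were lower, 0 higher and 2 not called, beside 34.7% lower among all tested genes, and the median log2 fold change was -0.43. The copper importer SLC31A1 fell by 0.65 on the log2 scale, its relative SLC31A2 by 1.03, the copper-exporting ATPase ATP7B by 0.62 and the copper chaperone ATOX1 by 0.60. ATP7A (0.09) and SCO1 (-0.03) were not called. With library totals alone 6 were lower and 2 were higher.

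**Figure D4:**
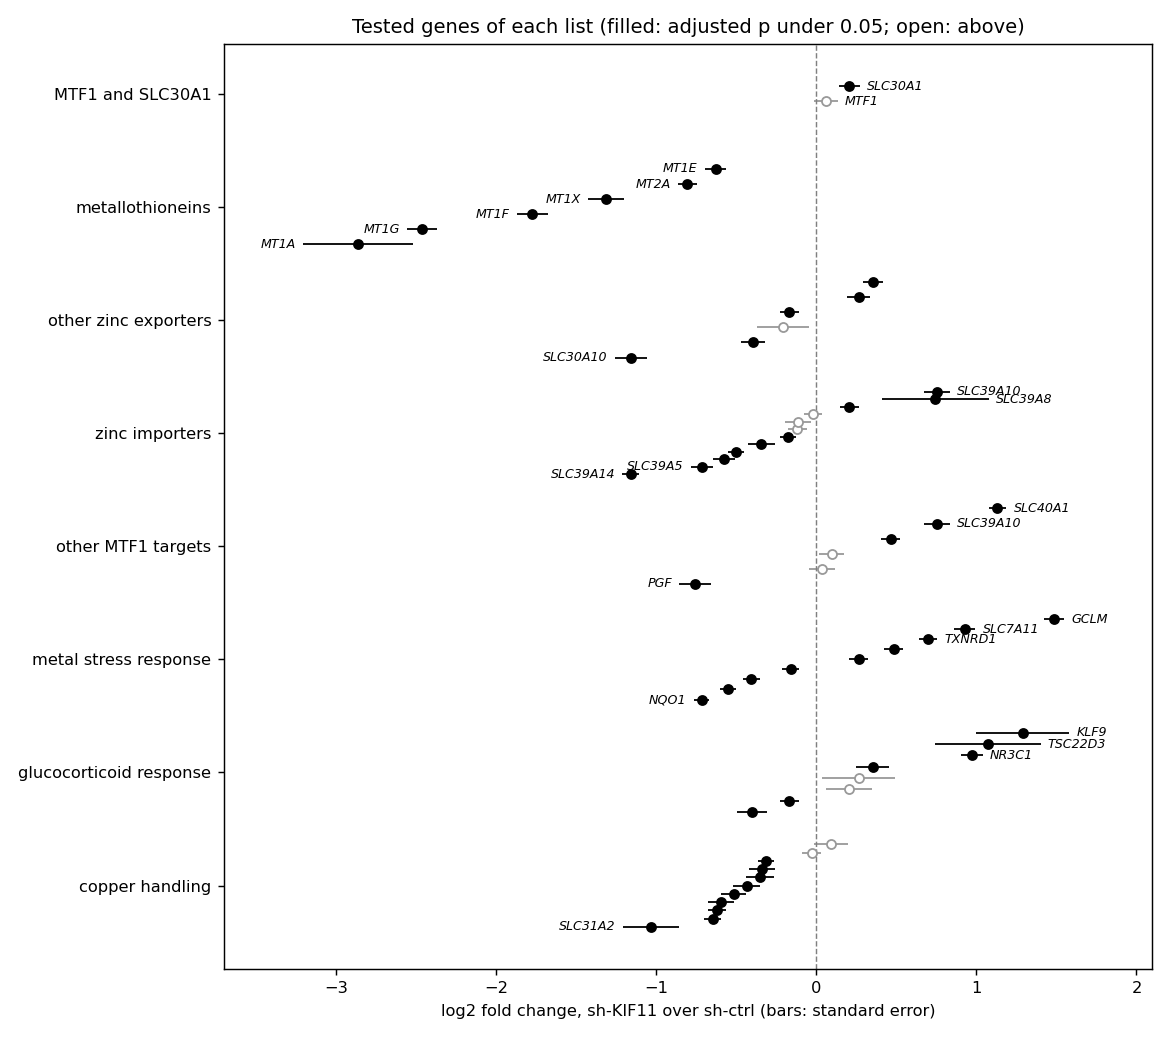
Log2 fold change of sh-KIF11 over sh-ctrl (horizontal axis) with its standard error for the tested genes of each list; filled points passed an adjusted p of 0.05 and open points did not. The 6 metallothioneins lie between -2.86 and -0.63, whereas zinc transporters, other MTF1 targets and stress genes lie on both sides of 0.

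On the genome, the metallothioneins measured here form a cluster on chromosome 16, with 76 kb from the start of MT2A to the end of MT1X. Of 8 flanking genes on either side, 7 were tested, with 1 higher, 4 lower and 2 not called, beside 69.1% called among all tested genes (median -0.28), and 3 higher and 2 lower with library totals alone. On one side OGFOD1 (-0.00) and NUDT21 (0.08) were not called and BBS2, a gene of the cilium, rose by 0.47. On the other side the nuclear pore gene NUP93 fell by 0.29, and HERPUD1, a gene of the unfolded protein response, fell by 0.71 on the log2 scale. SLC12A3 fell by 2.19 with counts of 16, 24 and 21 in the control libraries against 10, 2 and 3 after KIF11 knockdown. Within the cluster the size of the fall was not ordered by position, since MT1A with -2.86 lies between MT1E with -0.63 and MT1F with -1.77.

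**Figure D5:**
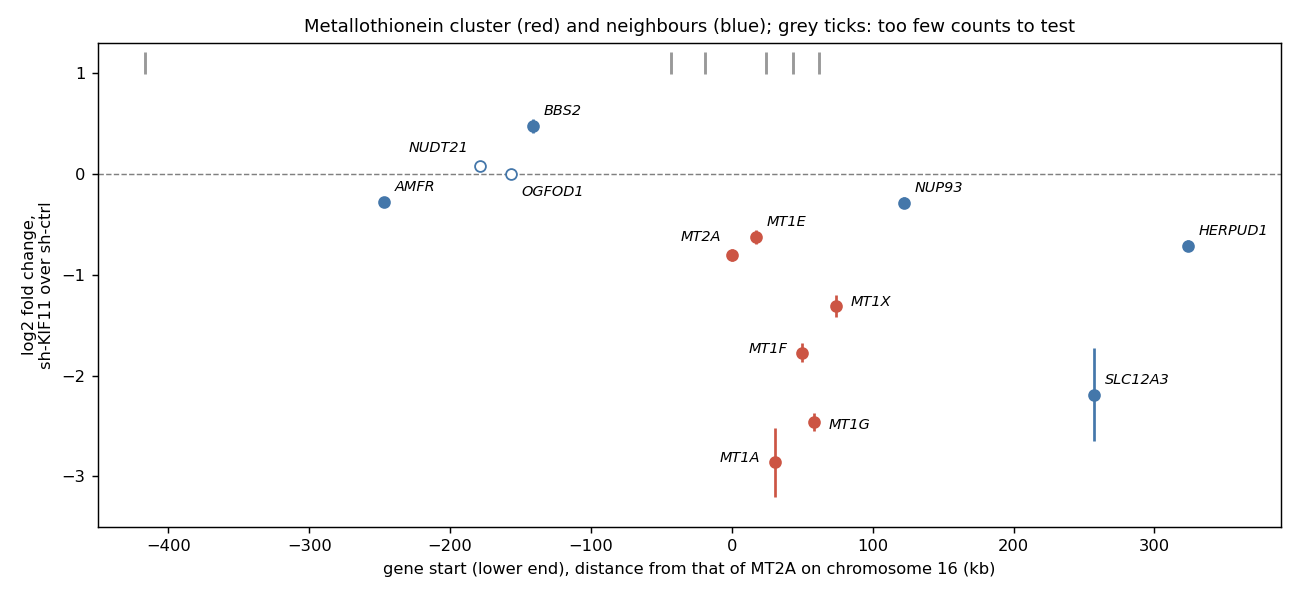
Log2 fold change with its standard error (vertical axis) against the distance in kb of each gene's lower end from that of MT2A on chromosome 16 (horizontal axis); red points are metallothioneins, blue points neighbours, open points did not pass an adjusted p of 0.05, and grey ticks mark genes with too few counts. The metallothioneins range from -0.63 to -2.86 within 76 kb, and NUP93 and BBS2 beyond the cluster stand at -0.29 and 0.47.

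The markers of hepatocytes moved with the metallothioneins. Of 10, 9 were lower, 0 were higher and 1 (TTR) was not called, beside 34.7% lower among all tested genes, with a median log2 fold change of -1.36, and their summed level ranged from 36051 to 37772 CPM in sh-ctrl and from 15586 to 16885 in sh-KIF11. Of 9 markers of other cell types 5 were tested, of which 2 were higher (ACTA2 and VWF) and 2 lower (LYZ and CD68). Among all tested genes 34.4% were higher and 34.7% lower. No marker on that list was at 0 in all libraries. Their summed level was 2576 to 3070 CPM in sh-ctrl and 706 to 824 in sh-KIF11, nearly all of it from LYZ, CD68 and ACTA2, without which it was 3.47 to 3.61 and 5.13 to 5.52 CPM. The part of these changes in the fall of the metallothioneins was not tested.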

How the data were processed

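Poly(A) RNA of HepG2 cells was sequenced in 6 stranded libraries, 3 sh-ctrl and 3 sh-KIF11, grouped by their labels. The authors deposited raw counts per gene and a table of FPKM for the same genes. The submitters' processing notes name the builds GRCh38 and hg38, bcl2fastq 1.8.4, Trimmomatic, HISAT2 2.1.0, Cufflinks 2.2.1, HTSeq 0.9.1 and DESeq, without their roles. The strand setting and the annotation used for counting are not given in the sources used here. The knockdown columns are headed only shRNA and were taken as sh-KIF11, since the labels name no other shRNA besides the control.

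Counts were fitted in R 4.3.3 with edgeR 4.0.16 (TMM, filterByExpr, quasi-likelihood test, group as the only term), and 12369 of 20030 genes were tested with a Benjamini-Hochberg threshold of 0.05. The standard error was derived from the log2 fold change and the F statistic. Single ratios were compared by a two-sided exact permutation test. Alternatives used RLE, upper-quartile or no scaling factors, other filters, DESeq2 1.42.0, limma 3.58.1 on log2(FPKM + 1) and log2(FPKM + 0.1), and libraries left out. The scripts were tested on simulated data in which few genes changed, equally in both directions. That setting does not test the choice of scaling for these libraries. With totals of 18167773 to 19583282 counts, 3 counts, the limit that a count of 0 allows, equal 0.145 to 0.178 CPM.

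The genes and lists were chosen with earlier results of these data known. Named genes were the 8 listed, KIF11, up to 4 genes per list with the largest change, and the 5 genes nearest in profile. Some further genes of the lists (the silent metallothioneins, SELENOW, HAMP, ATP7A, SCO1, heat shock genes, flanking genes and cell markers) were named after their values were seen. Coordinates are those of GENCODE release 29 (GRCh38), and motifs were searched in RefSeq windows on both strands. MT1E, MT1F, MT1G and MT1M had no window.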

Additional observations from a re-analysis of the deposited data

How the results depend on the processing

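The log2 fold changes of MT1E, MT1F, MT1G, MT1X, MT2A, SLC30A1 and KIF11 kept their direction and their side of the threshold under all 17 alternatives. MTF1 did not. It passed the threshold as higher with library totals alone (0.29), with limma on log2(FPKM + 1) (0.15, with or without the filter) and with limma on log2(FPKM + 0.1) (0.19), and in those fits 2 of the 8 genes were called higher. Library totals alone shifted the median of all tested genes to 0.23 and the FPKM fits to between 0.05 and 0.17. The TMM factors were 0.922 to 0.926 in sh-ctrl and 1.08 to 1.09 in sh-KIF11. Over the alternatives the values ranged from -0.88 to -0.54 for MT2A and from -0.69 to -0.40 for MT1E. For SLC30A1 the range was 0.17 to 0.44. The calls over all genes were 4254 higher and 4294 lower with TMM, 5014 and 3563 with upper-quartile factors, and 6619 and 2378 with library totals alone. The limma fits called 2596, 2597 and, without the filter, 2489 genes lower, and the first of them 5635 higher. Without a filter on low counts MT1M was also lower (-2.99, adjusted p = 0.00206, edgeR).

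Leaving out each library in turn gave -0.69 to -0.59 for MT1E, -1.85 to -1.70 for MT1F, -2.54 to -2.32 for MT1G, -1.44 to -1.25 for MT1X, -0.88 to -0.75 for MT2A, 0.04 to 0.09 for MTF1 and 0.17 to 0.27 for SLC30A1, whose largest adjusted p was 0.0322 in edgeR. The number of genes called over the whole table ranged from 7975 to 8749. Libraries of the same replicate number did not deviate together (correlations of 0.0300, -0.0185 and -0.00253), and with the replicate block MTF1 was at 0.06, SLC30A1 at 0.21, and 4296 genes were higher and 4311 lower.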
